A study of Mus musculus with 30 samples.

Results

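Pools 2 and 3 of the sucrose gradients of mouse embryoid bodies were compared, a set of 6 of the 30 arrays in the series. The members were chosen by label: every array titled as EB pool 2 or EB pool 3, with pool 3 taken minus pool 2 within each culture number. Embryoid bodies (EB) are aggregates in which embryonic stem cells (ESC) begin to differentiate. These were grown from the R1 mouse line for 5 days without LIF, the cytokine that keeps ESC undifferentiated, and 3 cultures were used. Undifferentiated R1 ESC kept in LIF gave 3 cultures of their own, and their pools 2 and 3 served for comparison. All cells of both states were exposed to cycloheximide (150 ug/ml, 15 min) before lysis, so no array shows cells free of this drug. Each gradient was cut into 12 fractions, which were merged into 4 pools, and 2.5 ug of pool RNA went to an array. Whether pool 1 was the light or the heavy end is not given in the sources used here, and pools are therefore called by their numbers.

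In such a gradient an mRNA travels according to the number of ribosomes on it. Cycloheximide arrests elongating ribosomes, so that mRNAs loaded with many ribosomes form heavy polysomes and those with few or none stay light. The number a fully loaded mRNA can carry grows with the length of its reading frame, and RNAs without a long reading frame carry few. Equal RNA was labelled from each pool, so a difference between pools is a difference in a transcript's share of the array signal. It need not equal the difference in the amount of mRNA in the gradient.

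Between pools 2 and 3, the lists of small proteins and selenoproteins had the lowest median pool 3 minus pool 2 values. The respiratory chain list was split, with Ndufc1 and Atp5k among the 12 lowest genes, and these 12, which also held the noncoding Zfas1 and Snhg12, lay 3.9-fold (Cenpw) to 6.68-fold (ND5) below. Transcripts for the proteasome stood at the other end. By the probe set of highest mean of each gene, all 34 measured subunits were above 0. Their median difference was 0.64 on the log2 scale against 0.05 over all genes. Transcripts for ribosomal proteins lay near the median of all genes after quantile normalization, with list medians of 0.03 and -0.05, but below it on the scale as deposited, at -0.55 and -0.62 against 0.28 for all genes. The other differences just given are after quantile normalization, relative to all genes. None of 13389 genes passed the test on that scale (percent called 0), while 1385 genes passed as higher and 142 as lower in pool 3 on the scale as deposited.

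The fit relative to all genes used values quantile normalized over the 6 arrays, which gives each array the same distribution, and paired the pools of a culture. Its smallest adjusted p was 0.0518 (limma with Benjamini-Hochberg adjustment), just above the threshold of 0.05, and 370 genes lay under 0.06. At an unadjusted p under 0.05 there were 3461 genes, 1868 above and 1593 below 0. On the deposited scale the higher genes were 10.3% and the lower genes 1.06% of those tested, and the median of all genes was itself shifted by 0.28. The deposited-scale counts were fragile: they fell to 0 with an offset of 16 in place of 32 or with no filter on low values, to 11 with no pairing by culture, to 1 without culture 1 and to 88 without culture 2, and rose to 5079 without culture 3. All 142 lower genes and all 1385 higher genes were also called without culture 3, and 137 and 1371 of them after median centring. Other scalings of the paired fit gave 637 higher and 771 lower genes (quantile normalization over 30 arrays) or 2919 higher and 250 lower genes (median centring). Below, a gene that "passed" did so on the deposited scale, and every difference is relative to all genes unless it is said to be on the deposited scale. "No overlap" means that all 3 values of a gene in one pool exceeded all 3 in the other. This held with pool 3 above for 2628 genes (19.6%) and with pool 3 below for 2056 genes (15.4%). Counts in the lists below are to be set against these shares, and counts of genes that passed against 10.3% higher and 1.06% lower. All these shares are over genes of every level and were not split by level.

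The array of culture 3, pool 2 stood apart. Its hybridisation controls averaged 13.92 against 11.11 to 11.95 on the other 5 arrays, and its 18S rRNA probe sets averaged 12.53 against 7.9 to 9.45. It correlated at 0.881 to 0.918 with the other arrays over the genes tested, which correlated at 0.943 to 0.984 among themselves. The differences of culture 3 also spread more over genes (SD 0.811) than those of culture 1 (0.518) and culture 2 (0.529). The ratio of 3′ to 5′ Actb probe sets, a sign of RNA or labelling quality, was 1.13, 1.64 and 2.22 (log2) in pool 2 and 0.62, 1.00 and 1.67 in pool 3, lower in pool 3 of each culture. The part of these in the results was not tested. Mean array signal was 425, 241.8 and 486.4 in pool 2 and 577.8, 262.8 and 340.8 in pool 3. The log2 difference was 0.02 ± 0.49 (SD, n = 3 pairs) with an exact two-sided permutation p of 1, where 0.25 is the smallest p that 3 pairs allow. Pluripotency factors Pou5f1, Sox2 and Nanog and the epiblast markers Otx2 and Fgf5 were above the array floor on all 6 arrays. Markers of other lineages were mixed. Eomes (streak), Gata6 (endoderm), Pax6 (neural) and Thy1 and Dcn (fibroblast) were also above it on all 6 arrays, and Sox17 (endoderm) on 5. The lowest Dcn value, 3.42 (log2), was close to the array floors of 2.93 to 3.8. T (streak), also planned as a marker, was matched to no probe set. Gata4 and Afp (endoderm) and Col1a1 (fibroblast) were above it on 4, and Mixl1 (streak) and Sox1 (neural) on 2.

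**Figure D1:**
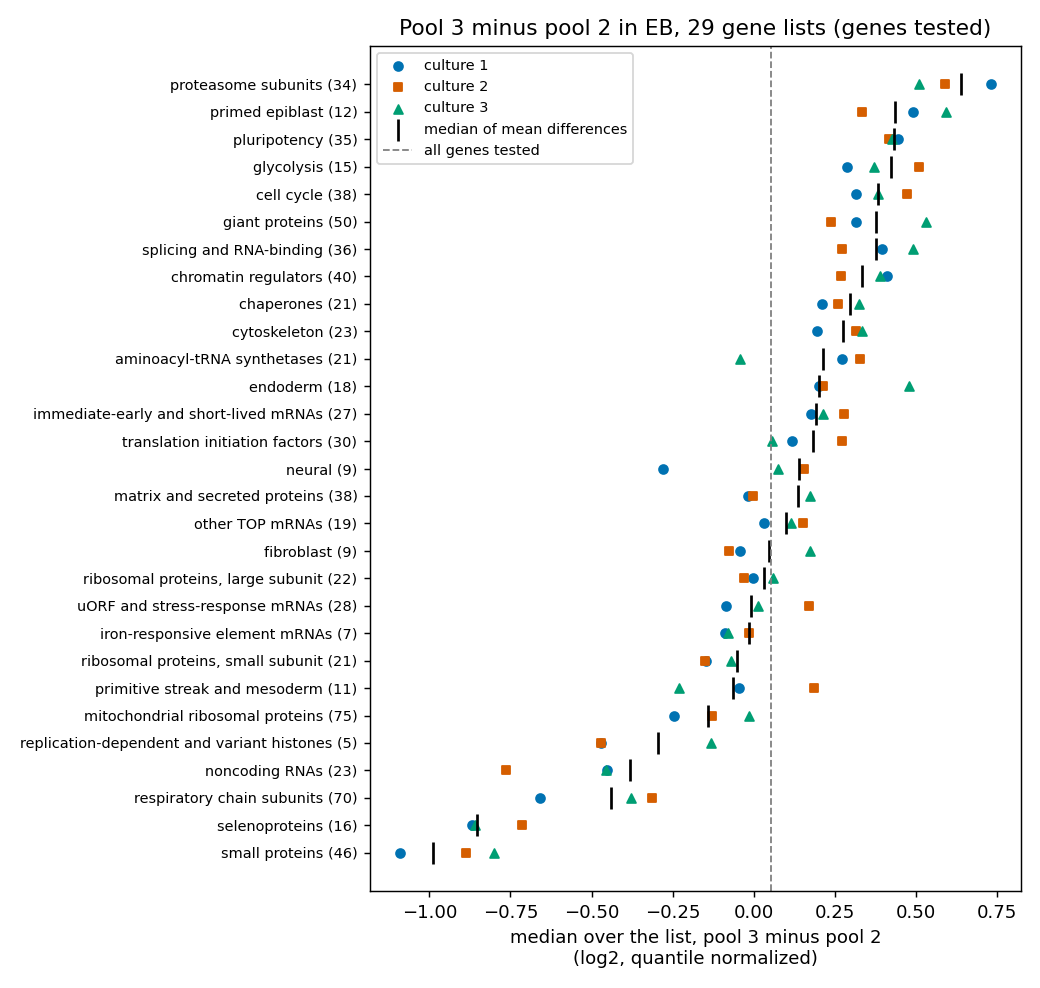
Median pool 3 minus pool 2 difference (log2, quantile normalized) of 29 gene lists, with the number of genes tested in parentheses; symbols are the 3 cultures, the bar is the median of the mean differences and the dashed line is the median of all genes, 0.05. The lists run from small proteins at -0.99 to proteasome subunits at 0.64, and at both ends the 3 cultures lie on the same side of the line.

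Small proteins, a list of mRNAs with very short reading frames outside the ribosome and the respiratory chain, had the lowest median. Membership of this list and of the giant proteins rests on general knowledge of the proteins, and reading-frame lengths were not computed here. All gene lists were chosen with earlier results of these data known, so they are not independent of the values. The median was -0.99 over 46 members, and -1.09, -0.89 and -0.80 in cultures 1, 2 and 3. Pool 3 lay below pool 2 without overlap for 38 members and above it for 1, and 16 passed as lower and 0 as higher. Timm8b, a chaperone of the mitochondrial intermembrane space, had log2 levels of 10.61, 10.95 and 11.25 in pool 2 and 8.20, 9.10 and 9.10 in pool 3. The pools did not overlap, and the difference was -2.14 (SE 0.19, adjusted p = 0.0518 relative to all genes and 0.0303 on the deposited scale, limma). Atox1, a copper chaperone, differed by -1.90 (-2.18, -1.75 and -1.78 in the 3 cultures). Lsm3, part of the ring that binds U6 snRNA, differed by -1.82 (-1.91, -1.85 and -1.71). Both passed as lower in pool 3. The thymosin Tmsb4x lay at -1.81. Probe sets disagreed in size for its relative Tmsb10 (3, from -1.34 to -0.20) and for Lsm6 (4, from -1.33 to -0.11), so single members are uncertain. The only member without overlap on the other side was Hmgn1, a nucleosome-binding protein, at 0.41 (adjusted p = 0.23).

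Cops9, the smallest subunit of the COP9 signalosome and outside the list, had an even larger difference. Its levels were 11.62, 12.08 and 12.47 in pool 2 and 9.26, 9.81 and 9.90 in pool 3, with no overlap. The difference was -2.40 (SE 0.17), and its 3 probe sets ran from -2.40 to -0.82. Cenpw, a small centromere protein, differed by -1.96 (-1.81, -1.90 and -2.19 in the 3 cultures). Both passed as lower.

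Selenoproteins, in which a UGA codon is read as selenocysteine, had a median of -0.85 over 16 members (-0.87, -0.72 and -0.86 in the 3 cultures). Pool 3 lay below without overlap for 11 and above for 1, while 2 passed as lower and 1 as higher. Selenow, a small redox protein, had levels of 10.45, 10.96 and 10.89 in pool 2 and 7.97, 8.76 and 8.81 in pool 3. That is a difference of -2.26 (SE 0.17), or 4.78-fold. Gpx1, the cytosolic glutathione peroxidase, differed by -1.44 (SE 0.17). The member that passed as higher was Txnrd1, thioredoxin reductase, one of the larger selenoproteins. Its levels were 10.57, 10.43 and 10.52 in pool 2 and 11.35, 11.18 and 11.19 in pool 3, a difference of 0.73 (SE 0.16). The remaining members without overlap, Selenof, Selenop, Selenos, Msrb1, Selenoh, Selenom, Selenok, Selenot and Gpx4, lay between -1.13 and -0.65 and did not pass.

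The nuclear-encoded respiratory chain was split. Its median was -0.44 over 70 subunits, with 40 below and 12 above without overlap, and 12 passed as lower and 2 as higher. Ndufc1, a small accessory subunit of complex I, had levels of 12.76, 12.99 and 13.18 in pool 2 and 10.67, 10.82 and 10.99 in pool 3. Its difference of -2.15 (SE 0.16) varied by less than 0.1 between cultures. Atp5k (-2.0) and Uqcr10 (-1.90), small subunits of ATP synthase and of complex III, also passed as lower. At the other end stood Uqcrc1, a core subunit of complex III, with levels of 10.45, 10.36 and 10.5 in pool 2 and 11.21, 11.13 and 11.04 in pool 3. Uqcrc1 (0.69) and Ndufs1 (0.53), the largest subunit of complex I, passed as higher. Sdhb (0.58), Cyc1 (0.51) and Atp5b (0.44), which carry iron-sulfur clusters, heme and the catalytic site of ATP synthase, lay above 0 in each culture but did not pass.

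By complex, the median was -0.56 over 33 subunits of complex I, -0.38 over 9 of complex III, -0.78 over 9 of complex IV and -0.29 over 14 of complex V. The 4 subunits of complex II, succinate dehydrogenase, had a median of 0.09. ND5, a subunit of complex I encoded in the mitochondrial genome and translated on mitochondrial ribosomes, had the lowest difference of all genes tested, -2.74 (SE 0.27). Its levels were 11.84, 12.21 and 13.34 in pool 2 and 9.30, 9.97 and 9.90 in pool 3. Mitochondrial ribosomal proteins, all made in the cytosol, had a median of -0.14 over 75 genes, below that of all genes (-0.06 without culture 1). On the deposited scale the median was 0.29, just above the 0.28 of all genes there. Pool 3 lay below without overlap for 28 and above for 13, while 1 passed as lower and 5 as higher. The extremes were Mrpl42 (-1.67) and Mrpl24 (1.07; 1.06, 1.08 and 1.07 in the 3 cultures), and both passed.

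**Figure D2:**
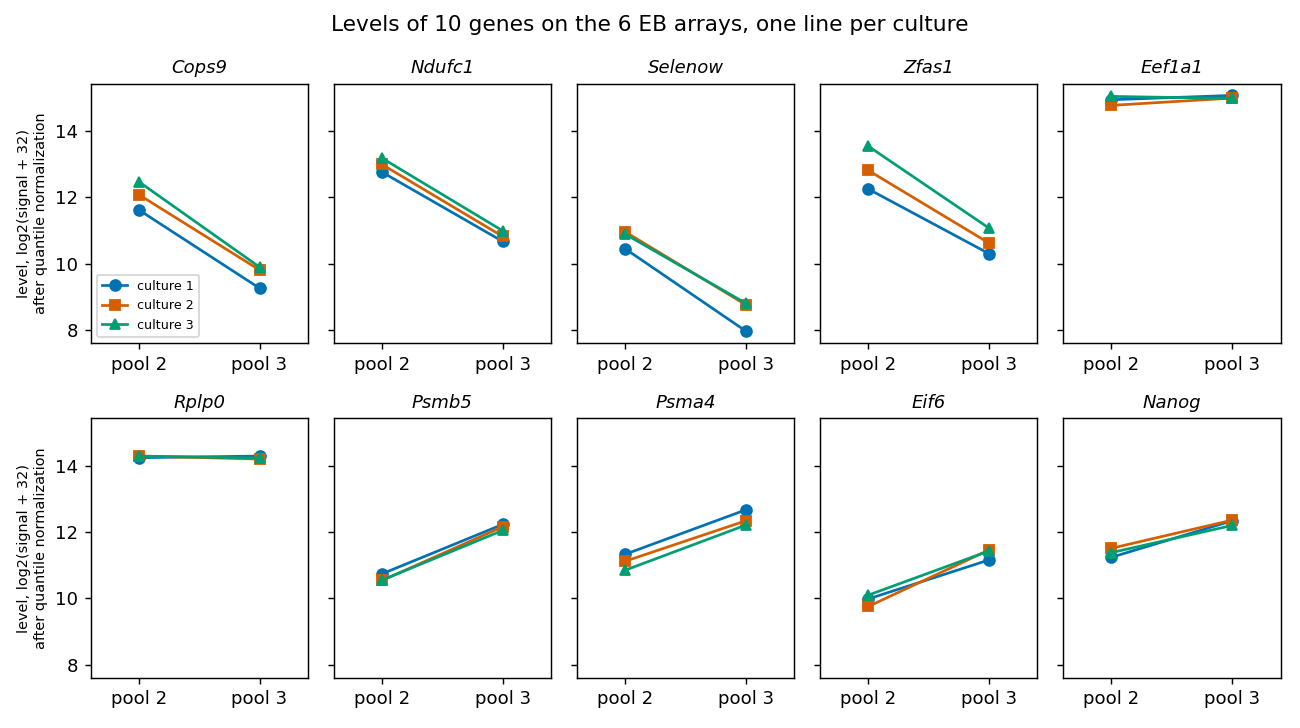
Levels (log2 of signal plus 32, quantile normalized) of 10 genes in pool 2 and pool 3, one line per culture. Cops9, Ndufc1, Selenow and Zfas1 lie lower in pool 3, Psmb5, Psma4, Eif6 and Nanog higher, and Eef1a1 and Rplp0 nearly level; the pools overlap for these last 2 genes only.

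Noncoding RNAs had a median of -0.38 over 23 members. Pool 3 lay below without overlap for 10 and above for 1, while 6 passed as lower and 1 as higher. The 6 were Zfas1, Snhg12, Snhg8, Snhg6, Snhg1 and Gas5, all spliced hosts whose introns carry small nucleolar RNAs. Zfas1 had levels of 12.25, 12.81 and 13.54 in pool 2 and 10.30, 10.62 and 11.07 in pool 3, with no overlap and a difference of -2.20 (SE 0.18). Snhg12 differed by -1.99 (SE 0.19) and Snhg8 by -1.86 (SE 0.16). Probe sets disagreed for Gas5, of which 2 of 4 had the opposite sign (-1.74 to 0.53), and for Snhg1, of which 1 of 5 lay at 0.01. The nuclear RNAs Neat1 (-1.02) and Malat1 (-0.82) did not pass. The exception was Snhg11 at 0.86, which passed as higher. Of the 14 tested genes with an Snhg symbol, a grouping made after the values were seen, 11 lay below without overlap. Over the whole array, 479 genes that RefSeq types as lncRNA had a median of -0.21, with 19.8% below and 2.71% above without overlap. The 12757 protein-coding genes had a median of 0.07, with 15.2% below and 20.5% above.

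Several of these host genes are counted, with ribosomal proteins and elongation factors, among transcripts that begin with a 5′ terminal oligopyrimidine (TOP) tract. This is a run of C and T that follows an initial C and through which mTOR signalling controls translation. The bases around the annotated start are shown because genes with a run of C and T there, of differing length, lay at different places in this comparison. Each line gives 15 bases before and 15 bases from the start on, 5′ to 3′, from RefSeq promoters (build GRCm38.p6), and capitals mark the longest run of C and T beginning with C near the start.
Snhg12: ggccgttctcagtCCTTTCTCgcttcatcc
Snhg8: gcaccgttcagaagtCTCTTTggctgcgat
Rps6: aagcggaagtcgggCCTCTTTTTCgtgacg
Rps18: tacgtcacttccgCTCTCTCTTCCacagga
Eef1a1: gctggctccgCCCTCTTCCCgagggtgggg
The windows are chr4:132308663-132308692 on the plus strand (Snhg12), chr3:123508322-123508351 on the minus strand (Snhg8), chr4:86857353-86857382 on the minus strand (Rps6), chr17:33955651-33955680 on the minus strand (Rps18) and chr9:78481710-78481739 on the minus strand (Eef1a1).

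The noncoding Snhg12 and Snhg8 differed by -1.99 and -1.86, Rps6 by -0.97, Rps18 by -0.04 and Eef1a1 by 0.10. The marked runs are 8, 6, 10, 11 and 10 letters long. They begin at positions -2, 0, -1, -2 and -5 from the annotated start, and whether the transcripts begin with them was not tested. The Rps6 value rests on 1 probe set with a low level for its list. A run of at least 8 letters, searched on the transcribed strand and starting within 15 bases of an annotated start, was found for 50% of 34 large-subunit and 44% of 25 small-subunit ribosomal protein genes, against 12.9% of 27025 genes with a promoter sequence. For the noncoding list it was found for 14.3% of 21 genes, close to the share of all genes. Besides Snhg12 and Snhg8, the run was 4 letters long for Snhg1 and Zfas1, and 3 and 6 at the starts of Gas5. The median difference was 0.04 over 1563 tested genes with the run and 0.06 over 9253 without it. Such a match describes the letters only, and annotated starts are imprecise for many genes.

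Ribosomal proteins were measured for 22 of 47 listed genes of the large subunit and 21 of 34 of the small subunit. The medians were 0.03 and -0.05, close to the 0.05 of all genes. On the deposited scale they were -0.55 and -0.62, while all genes stood at 0.28, so the place of these abundant transcripts depends on the scaling. With a culture left out the large-subunit median ran from -0.06 (without culture 3) to 0.04 and the small-subunit median from -0.15 (without culture 3) to -0.02 (without culture 2). Rplp0, part of the ribosomal stalk, had levels of 14.24, 14.29 and 14.29 in pool 2 and 14.29, 14.20 and 14.23 in pool 3. Rpl37, a small protein of the large subunit, was the only member of both lists to pass, as lower, with -1.67 (-2.30, -1.39 and -1.32 in the 3 cultures). Rps6, the S6 kinase substrate, had levels of 8.94, 9.47 and 9.43 in pool 2 and 8.16, 8.42 and 8.34 in pool 3. It was read by 1 probe set, far below the rest of its list. With the 4 EB pools normalized together its pool 2 level was 8.77, against a small-subunit median of 13.96. Its value is therefore uncertain. The pools did not overlap, and Rps6 did not pass (adjusted p = 0.0625 relative to all genes, 0.20 on the deposited scale, limma). Rpl27a at -1.32 rested on culture 3 (-0.18, -0.91 and -2.88). Ribosomal protein genes have many near-identical processed pseudogenes, so a probe set may also read those copies.

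**Figure D3:**
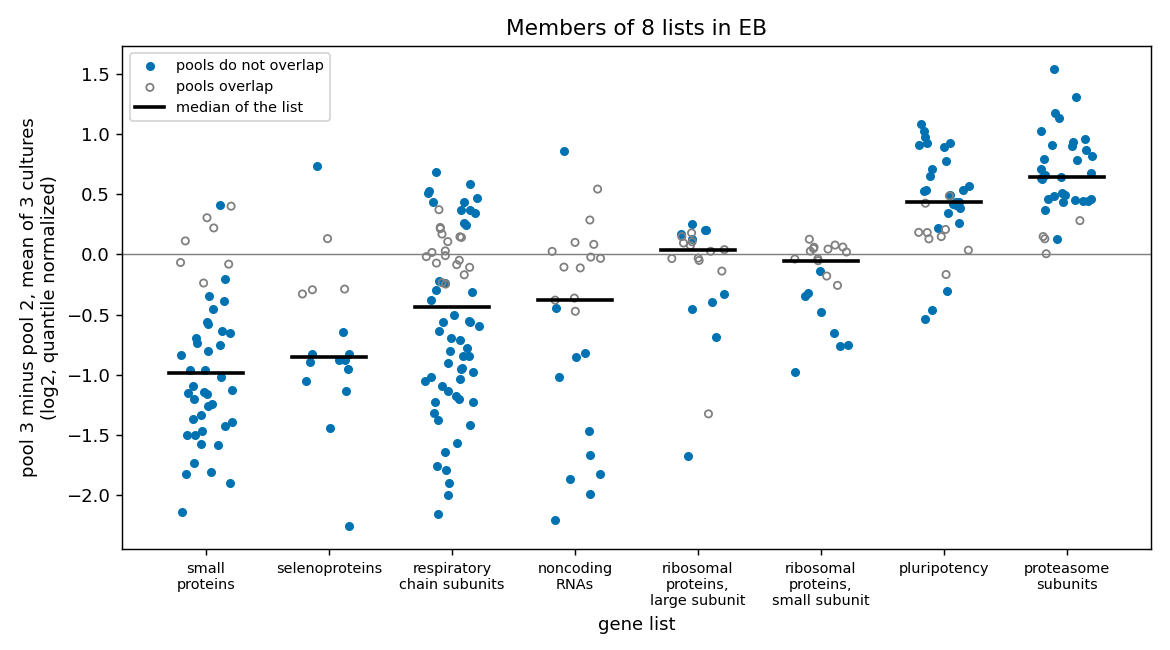
Pool 3 minus pool 2 difference (mean of 3 cultures, log2, quantile normalized) of each tested member of 8 lists; filled points are genes whose pools do not overlap, open points overlap, and bars are list medians. On this scale ribosomal proteins have medians near 0 (on the deposited scale they lie below all genes), 41 of 46 small proteins lie below it and all 34 proteasome subunits above it.

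The proteasome, the complex that degrades ubiquitylated proteins, showed the reverse pattern. All 34 subunits were tested, 30 lay above without overlap and 0 below, and 19 passed as higher. The list medians were 0.73, 0.59 and 0.51 in cultures 1, 2 and 3. Psmb5, which carries the chymotrypsin-like site of the core, had levels of 10.74, 10.54 and 10.55 in pool 2 and 12.23, 12.16 and 12.05 in pool 3. Its difference of 1.54 (SE 0.16, adjusted p = 0.0518 relative to all genes and 0.0303 on the deposited scale, limma) was close to equal in the 3 cultures (1.49, 1.62 and 1.5). Psma4, of the alpha ring, differed by 1.30 (SE 0.16), and Psmb7, which carries the trypsin-like site, by 1.18 (SE 0.18). By position, the median was 0.82 over the 7 alpha and 0.90 over the 7 beta subunits of the core, 0.44 over the 6 ATPases and 0.57 over the 14 other subunits of the regulator. At the low end stood Psmb1 (0.00), Psmd5 (0.13), Psmd9 (0.13) and Psmd8 (0.15). Psmb1 is uncertain, since 2 of its 3 probe sets had the opposite sign. So had 2 of 3 of Psmd7 (down to -0.68), 2 of 6 of Psmd11 and 1 of 4 of Psmd13. For Psmc1 and Psma3 this held for 1 of 2, and for Psma6 for 1 of 3. That all 34 subunits lay above 0 therefore holds for the probe set of highest mean of each gene, not for every probe set.

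Among genes of the translation apparatus, 30 initiation factor subunits had a median of 0.18, with 14 above and 4 below without overlap, and 6 passed as higher and 0 as lower. Eif6, which keeps the ribosomal subunits apart, had levels of 9.98, 9.76 and 10.10 in pool 2 and 11.16, 11.46 and 11.43 in pool 3, a difference of 1.41 (SE 0.19). Eif5, the GTPase activator of the scanning complex, differed by 1.06 (SE 0.17), although 1 of its 5 probe sets had the opposite sign. The 4 below without overlap were the repressors Eif4ebp1 (-0.89) and Eif4ebp2 (-0.53) and the eIF3 subunits Eif3l (-0.62) and Eif3m (-0.31), and none passed. Of the 4 probe sets of Eif4ebp2, 3 had the opposite sign, as had 1 of 3 of Eif3l. Eif3a (0.65) and Eif3b (0.48), the large core subunits of the same complex, passed as higher. The 21 aminoacyl-tRNA synthetases had a median of 0.21 (0.13 without culture 2), and 5 passed as higher, with Hars at 0.84, Lars at 0.76 and Aars at 0.74. Other TOP transcripts had a median of 0.10 over 19 genes (0.03 without culture 3), from Gas5 (-1.47) to Pabpc1 (0.62), and 1 passed in each direction. On the deposited scale their median was -0.17 against 0.28 for all genes, so their side of that median turns with the scaling. In this list the eIF3 subunits Eif3h (-0.91) and Eif3f (-0.69) lay below without overlap and did not pass.

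Factors of the pluripotent state were mostly above the median of all genes. Their median was 0.43 over 35 genes, with 0.45, 0.42 and 0.42 in the 3 cultures. Pool 3 lay above without overlap for 23 and below for 3, and 13 passed as higher and 0 as lower. Nanog, a homeodomain factor of the pluripotency network, had levels of 11.24, 11.51 and 11.38 in pool 2 and 12.34, 12.36 and 12.20 in pool 3, a difference of 0.93 (SE 0.17). Klf5 (1.08), Tfcp2l1 (1.02) and Sox2 (0.97) had the highest values and passed, but 2 of the 3 probe sets of Klf5 had the opposite sign. Pou5f1 differed by 0.42 (0.37, 0.38 and 0.50 in the 3 cultures) without overlap and did not pass. The 3 members below without overlap were Tcl1 (-0.53), Gdf3 (-0.47) and Dppa3 (-0.31). Genes of the primed epiblast, the state that follows, had a median of 0.44 over 12 genes, and 5 passed as higher. Otx2, a homeodomain factor of that state, had levels of 11.44, 11.10 and 11.01 in pool 2 and 12.57, 11.87 and 12.03 in pool 3, a difference of 0.97 (SE 0.17). Nodal (-0.58) of the same list lay below 0, as did Fgf5 (-0.24), whose other probe set had the opposite sign (0.36).

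Of the lineage lists, primitive streak and mesoderm had a median of -0.07 over 11 genes and endoderm one of 0.20 over 18 genes, with 2 passing as higher in each. Both medians moved with the cultures used: the first ran from -0.20 without culture 2 to 0.06 without culture 3, and the second rose to 0.44 without culture 2. Eomes, a T-box factor of the streak, had 0.88 (0.95, 0.76 and 0.95), and 1 of its 2 probe sets had the opposite sign. The neural and fibroblast lists had 9 genes tested each, medians of 0.14 and 0.05, and no gene that passed. Over all genes, 10.3% passed as higher and 1.06% as lower. The neural median was -0.03 without culture 2 and 0.07 without culture 3, and the fibroblast median 0.14 and -0.03. On the deposited scale these lists stood at -0.0046 and 0.01, below the 0.28 of all genes.

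Of 6 further lists with medians above that of all genes, glycolysis had a median of 0.42 over 15 genes, with 5 passing as higher, among them Tpi1 (0.85), triose phosphate isomerase. Cell cycle genes (0.38 over 38, 13 passing) included Pcna, the replication clamp, at 1.10 (1.39, 0.99 and 0.92). Chromatin regulators (0.33 over 40, 12 passing) were led by Wdr5 at 1.10 (1.29, 1.10 and 0.91), a shared subunit of H3K4 methyltransferases, and by Suz12 of Polycomb repressive complex 2 at 0.92. Of the 6 probe sets of Suz12, 1 had the opposite sign. In splicing and RNA binding (0.38 over 36, 7 passing), Hnrnpab stood at 1.30, although 1 of its 7 probe sets had the opposite sign. Among chaperones (0.30 over 21, 4 passing), Hspa4 had levels of 11.32, 11.28 and 11.28 in pool 2 and 12.34, 12.34 and 12.29 in pool 3. Its 3 probe sets disagreed in size, with differences from 0.01 to 1.03. The giant proteins, with reading frames among the longest known, had a median of 0.38 over 50 genes, and 8 passed as higher. Their top member Mki67, the proliferation antigen, rested on culture 3 (0.90, 0.44 and 2.86). No member of these 6 lists passed as lower, but only 1.06% of all genes did so, while 10.3% of all genes passed as higher.

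Of the remaining lists, cytoskeleton had a median of 0.27 over 23 genes (1 passing as higher) and immediate-early transcripts 0.19 over 27 (7 higher), or 0.35 without culture 3. Matrix and secreted proteins had 0.14 over 38 (4 higher), or 0.03 without culture 3. Set against the 10.3% of all genes that passed as higher, 4 of 38 is near that share and 1 of 23 below it. Transcripts with upstream reading frames or stress control had -0.01 over 28 (4 higher), and 0.04 to 0.06 with a culture left out. In that last list Ddit3, the stress factor CHOP, lay at -1.33 without overlap (-1.57, -0.93 and -1.48) and did not pass (adjusted p = 0.0542 relative to all genes and 0.0597 on the deposited scale, limma). Transcripts with iron-responsive elements had -0.02 over 7 (1 higher), from -0.15 without culture 3 to 0.09 without culture 2, with ferritin heavy chain Fth1 at -0.84 and Epas1 at 0.74. The 5 histone genes tested, mostly variants, had -0.29 with none passing, and H2az2 stood lowest at -1.06.

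Across all genes, the 12 lowest and 12 highest differences were taken among genes that passed, had no overlap and were above the floor on all 6 arrays. This choice was made after the values were seen, because the rule set for named genes needed calls relative to all genes, of which there were none. The lowest 12 were ND5, Tcl1b3, Cops9, Selenow, Zfas1, Ndufc1, Timm8b, Atp5md, 5430416N02Rik, Atp5k, Snhg12 and Cenpw, from -2.74 to -1.96. Tcl1b3, of a family of near-identical genes, had levels of 10.33, 11.05 and 12.49 in pool 2 and 7.55, 8.87 and 9.45 in pool 3. Its probe set may read its paralogs, so the value is uncertain. Culture 3 had the largest difference for 8 of these 12 genes, and without it they ran from -2.48 to -1.85.

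The highest 12 were Trim71, Pbx2, Ier5, Atg101, Socs3, Nmral1, Enox1, Mob1a, Mnt, Agap1, Rcbtb1 and Pds5a, from 1.97 to 1.55. In all 12 culture 3 had the largest difference and its pool 2 array, the one that stood apart, the lowest level. Trim71, a target of the microRNA let-7, had levels of 8.81, 8.18 and 6.90 in pool 2 and 10.13, 9.77 and 9.90 in pool 3. Socs3, the feedback inhibitor of LIF signalling, had 7.34, 7.05 and 6.06 in pool 2 and 8.57, 8.17 and 8.93 in pool 3. Without culture 3 the 12 ran from 1.02 to 1.45, below Psmb5 (1.56) on the same 2 cultures. Ier5, Mnt and Pds5a each had a second probe set of opposite sign.

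Some probe sets were at the floor, the lowest value an array reports, on all 3 arrays of one pool and above it on all 3 of the other. There were 186 above the floor in pool 3 only and 289 in pool 2 only. In pool 3 these included Nab2 (at least 8.67-fold higher), Brwd1 (at least 6.53-fold), Patj (at least 6.35-fold) and Aplf (at least 5.99-fold). In pool 2 they included Ttc9b (at least 5.91-fold higher), Emb (at least 5.08-fold), a further probe set of Uqcrq (at least 5.06-fold) and Wfikkn1 (at least 4.88-fold). These bounds compare deposited values with the floor and have no test of their own.

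**Figure D4:**
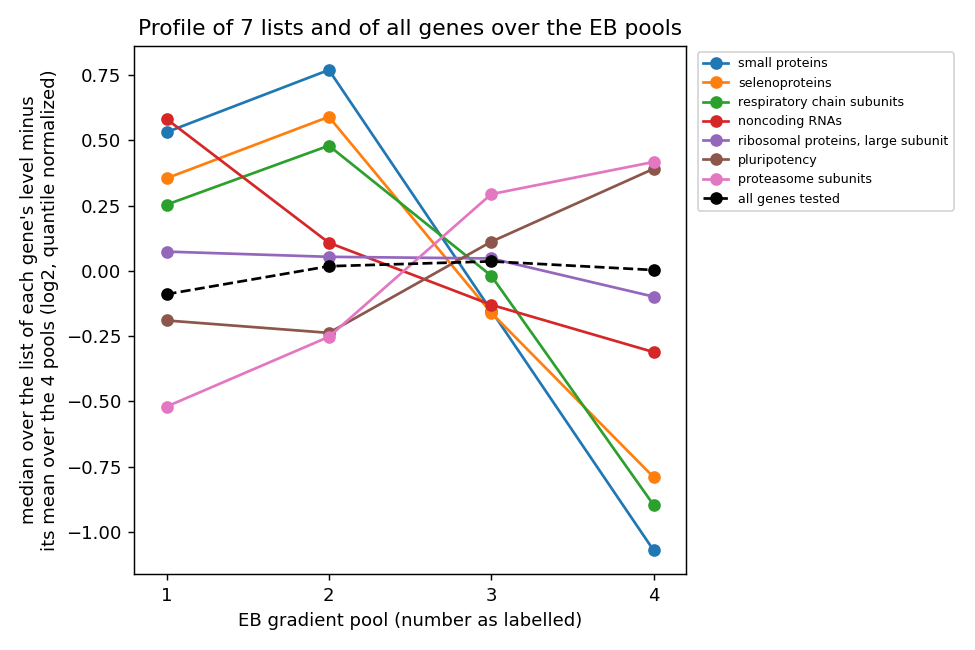
Profile over the 4 EB pools: the median over each list of a gene's level minus its own mean over the pools (log2, quantile normalized over the 12 EB pool arrays). Small proteins go from 0.77 in pool 2 to -0.15 in pool 3 and -1.07 in pool 4, proteasome subunits from -0.25 to 0.29 and 0.42, and large-subunit ribosomal proteins stay between -0.10 and 0.07.

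Over the full gradient, of all 13389 genes 4065 were lowest in pool 4, and 2559, 3761, 2845 and 4224 were highest in pools 1 to 4. The level of small proteins was lowest in pool 4 for 44 of 46 genes and highest in pool 2 for 29. Respiratory chain subunits were lowest in pool 4 for 56 of 70 genes. Proteasome subunits were highest in pool 3 for 17 and in pool 4 for 16 of 34 genes. Of the other lists, 35 of 40 chromatin regulators and 19 of 21 aminoacyl-tRNA synthetases were highest in pool 4. Noncoding RNAs were highest in pool 1 for 12 of 23.

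Whether the step between pools 2 and 3 differed between states was tested on the difference itself, with the 12 arrays of both states normalized together. Of 13377 genes, 0 were called in either direction (0% higher and 0% lower in EB; limma, smallest adjusted p 0.361), and 1596 had an unadjusted p under 0.05. On the deposited scale 4904 genes were called, 4897 of them higher in EB, and after median centring 2777, so the state difference depends on the scaling. In these bulk cultures, fewer cells of a type and less RNA per cell cannot be told apart. Small proteins had a median step of -0.99 in EB and -0.75 in ESC, selenoproteins -0.86 and -0.55, respiratory chain subunits -0.44 and -0.26 and the proteasome 0.63 and 0.62. Psmb5 had steps of 1.56 and 1.64. The farthest apart of the lists was the primed epiblast, with 0.44 in EB and 0.02 in ESC. In it, Otx2 had steps of 0.99 in EB and -0.01 in ESC, a difference of 1.00 (SE 0.21) that was not called (adjusted p = 0.361, limma). Tcl1b3 had -2.69 and 0.07, Cops9 -2.43 and -1.40, and Krt18, a keratin of simple epithelia, -0.80 and 0.19, none of them called. The Actb 3′ to 5′ ratio was 3.07 to 5.31 in ESC pool 2 and 1.69 to 3.59 in ESC pool 3, above the EB arrays of the same pool in each culture. Mean array signal was 300.8, 185.9 and 322.7 in ESC pool 2 and 204.9, 107.1 and 161.4 in ESC pool 3. Probe sets at the floor were 30.03% to 35.98% in ESC pool 2 and 38.46% to 46.63% in ESC pool 3. On the EB arrays of these pools they were 18.38% to 26.63%. The part of these differences in the state comparison was not tested.

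**Figure D5:**
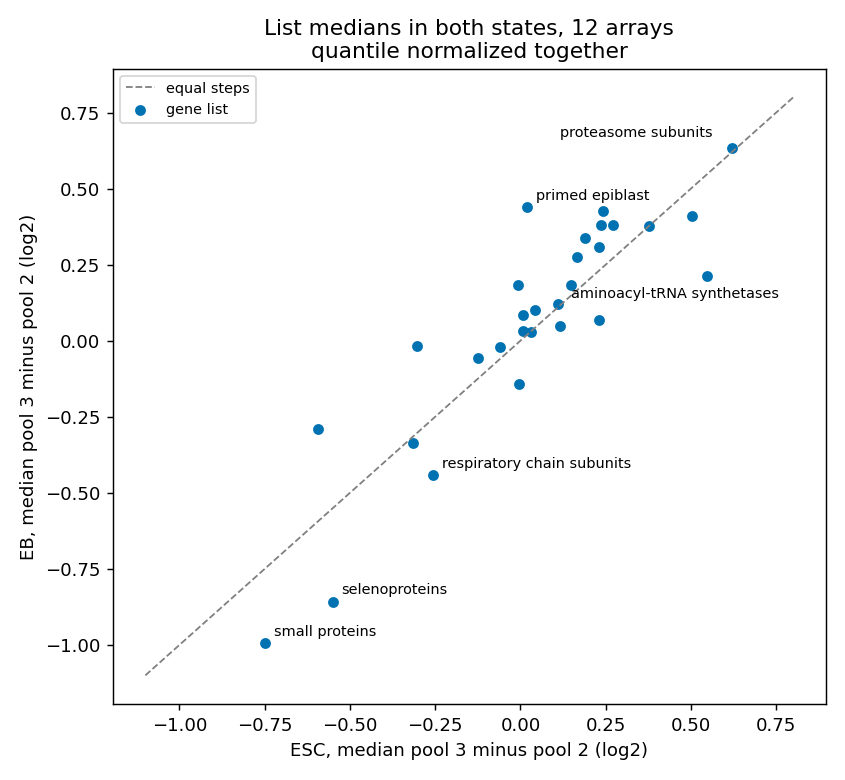
Median pool 3 minus pool 2 difference (log2, 12 arrays quantile normalized together) of 29 gene lists in ESC (x axis) and EB (y axis), with a dashed line of equal steps. Small proteins lie at -0.75 and -0.99, proteasome subunits at 0.62 and 0.63, and the primed epiblast list at 0.02 and 0.44.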

How the data were processed

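The series holds 30 Affymetrix mouse expression arrays; the 6 of EB pools 2 and 3 (3 cultures) carry this comparison. The authors deposited log2 signals. MAS5 and affy are named in the submitters' processing notes without version, role or setting. Pool arrays of one culture number shared a floor within 0.01, in EB and ESC alike (log2 3.8, 2.93 and 3.35 for numbers 1, 2 and 3). A shared floor thus links arrays of both states, though their cultures were separate, and the reported state fit had no block for the number. On the 6 arrays, 18.38% to 26.63% of probe sets lay at the floor. The members and gene lists were chosen with earlier results of these data known.

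Values were made linear, 32 was added and log2 taken, then quantile normalized over 45037 non-control probe sets (or left as deposited). Probe sets in the lowest 40% by mean were left out, and a gene took its probe set of highest mean. Platform annotation named 34945 probe sets with 1 symbol, 932 with several and 9160 with none; 13332 of 13389 tested genes matched RefSeq by gene ID. The paired fit (culture number as a block) used lmFit and eBayes of limma 3.58.1 under R 4.3.3, two-sided, with Benjamini-Hochberg adjustment, and was tested on simulated data. Pools of one number are fractions of one culture; their deviations from pool means correlated at 0.17, 0.05 and 0.09. The rule for named genes was the 12 highest and 12 lowest called genes relative to all genes and up to 3 called members per list, or else the member with the largest difference; as none was called relative to all genes, calls on the deposited scale were used. Of 88 genes so named, 51 had several probe sets and 14 had one of opposite sign. Alternatives covered scaling, offset, filter, probe sets, block, variance model and left-out cultures. Precision is limited by the 3 cultures.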

Additional observations from a re-analysis of the deposited data

How the results depend on the processing

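No named gene changed the sign of its difference relative to all genes in any setting run (88 genes, or 85 where only genes above the floor were kept). This says little about stability, since the genes were chosen for a large difference. Several settings (block, variance trend, filter, all probe sets, genes above the floor) also kept the same values and so the same difference. Of the 88 genes, 14 had another probe set of opposite sign. The number of genes passing relative to all genes, 0 in the reported fit, stayed 0 with an offset of 16, without a filter and over all 45037 probe sets. It was 2173 with the larger offset, 1044 with no replicate block, 3169 after median centring, 1408 with quantile normalization over 30 arrays, 1032 with only genes above the floor, 194 with the mean of a gene's probe sets, 2338 with a variance trend, 1512 with array weights (chosen after seeing the data) and 0 to 274 with a culture left out (112 without culture 1, 0 without culture 2, 274 without culture 3). On the deposited scale, 1527 genes became 0 with an offset of 16, 0 with no filter, 3628 with the larger offset, 11 with no replicate block, 5407 with array weights (also added) and 1 to 5079 with a culture left out. The cause was not tested. The state difference, 0 genes, was 4904 on the deposited scale, 2777 after median centring and 0 with the replicate block and with each culture left out. The median array signal differed by -0.14 where the mean differed by 0.02. Set against the median of all genes, 9 of the 29 list medians changed sign in some setting. Those whose reported value exceeded the spread between pairs were mitochondrial ribosomal proteins (0.01253 on the deposited scale and 0.01253 after median centring), iron-responsive transcripts (-0.18 to 0.024 with a replicate left out) and matrix and secreted proteins (-0.0064 to 0.12). The others lay within that spread: other TOP transcripts and neural genes on the deposited scale, after median centring and without culture 3 or 2, fibroblast genes without culture 2 and over 30 arrays, large-subunit ribosomal proteins over 30 arrays, and primitive streak and upstream-frame transcripts without culture 3. A pool difference below the floor of an array is not measurable.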
